A study of Mus musculus with 2 samples.

Results

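Immediate-early genes are switched on within minutes of a signal, without new protein synthesis, and their mRNAs are short-lived. Many encode transcription factors, such as the FOS and JUN proteins that pair as AP-1, and others encode phosphatases, RNA-decay factors and inhibitors that end the response. Stress response genes act beside them: GADD45 proteins restrain growth, PPP1R15A lets translation resume, and chaperones refold proteins. In skeletal muscle these genes are known to be induced in satellite cells, the resident muscle stem cells, by injury and also by enzymatic isolation of the tissue. A set of 42 such genes, of 32286 features in the count tables, was listed by symbol, with earlier results of these data known: 8 AP-1 subunits, 4 other basic leucine zipper (bZIP) factors, 10 zinc finger and other transcription factors, 12 feedback and mRNA-decay genes, 4 growth arrest genes and 4 chaperones. All 42 symbols were found.

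The cells came from Pax3GFP/+ mice, in which GFP reports the Pax3 locus (the genotype field of the labels reads wild-type), and were isolated fresh by flow sorting from biceps and recto femoris muscle 5 days after injury. The sort gave a GFP+ (PAX3+) and a GFP- (PAX3-) satellite cell fraction, and both carried the same allele and injury. Each fraction gave 1 droplet library with the Single Cell 3′ kit version 3.1, from 20000 loaded cells. The sources used here do not say how many animals were used, which biceps was meant or how the injury was made. With 1 library each, fraction and library cannot be told apart.

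With 1 library per fraction there was no test, and every difference below describes these 2 libraries or the cells within them. A barcode counted as a cell from 1000 UMIs (unique molecular identifiers, 1 per captured transcript) and 500 genes on, if no more than 10% of its UMIs were mitochondrial. This gave 604 cells in GFP+, at a median depth of 18534.5 UMIs, and 2683 in GFP-, at 14663, and 2 of their barcodes occurred in both libraries. The median mitochondrial share was 2.48% in the GFP+ and 4.46% in the GFP- cells. A limit of 5% would keep 585 and 1740 cells. Cells were grouped by 1 gene each. Erfe (erythroferrone, a secreted hormone) marked 54 GFP+ and 20 GFP- cells, and Chodl (chondrolectin, a satellite cell membrane protein) marked 134 and 381. Mki67, a marker of cycling cells, marked 19 and 196, and Myog, the factor that drives myoblast differentiation, marked 76 and 461. Rgs5, a mural cell gene, marked 0 and 111, and Lyz2, the macrophage lysozyme, marked 74 and 52. The other 247 GFP+ and 1461 GFP- cells are called the remaining cells. To check the groups, levels of marker lists were summed in CPM (UMIs of a gene per 1e6 UMIs of the same cells) without the gene that defines a group; sums given beside later results take the whole list. In the Erfe-high and Chodl-high cells the 6 satellite markers other than Chodl summed to 4111 and 2702 CPM in the GFP+ library and 3051 and 1795 CPM in the GFP- library, against 1076 and 967 CPM in the remaining cells. The 7 macrophage markers other than Lyz2 were all found in the Lyz2-positive cells, at 15539 and 10213 CPM, against 138 and 9.80 CPM in the remaining cells. The 7 mural markers other than Rgs5 were all found in the Rgs5-positive cells, at 7845 CPM, against 1295 CPM in the remaining GFP- cells. In Myog-positive cells 4 of the 7 were found in GFP+, at 3619 CPM, and 6 in GFP-, at 3323 CPM. The mural list is thus not restricted to the Rgs5-positive cells. The 4 globin genes were at 0 in the GFP+ cells and had 2 UMIs in all in the GFP- cells. Lyz2-positive and Rgs5-positive cells thus carry markers of other cell types than the labelled one, and are called macrophage-like and mural-like.

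Promoters of 6 members are shown because these genes carry the results that follow: Fos, the founding AP-1 gene, Atf3, Nr4a1, Dusp1, Zfp36 and Ppp1r15a. Each run gives the 250 bases before the RefSeq start on build GRCm38.p6, 5′ to 3′ on the gene's strand, with motif matches in capitals. The stretches are chr12:85473640-85473889 for Fos, chr1:191183334-191183583 for Atf3, chr15:101266596-101266845 for Nr4a1, chr17:26508473-26508722 for Dusp1, chr7:28379229-28379478 for Zfp36 and chr7:45526269-45526518 for Ppp1r15a.
Fos: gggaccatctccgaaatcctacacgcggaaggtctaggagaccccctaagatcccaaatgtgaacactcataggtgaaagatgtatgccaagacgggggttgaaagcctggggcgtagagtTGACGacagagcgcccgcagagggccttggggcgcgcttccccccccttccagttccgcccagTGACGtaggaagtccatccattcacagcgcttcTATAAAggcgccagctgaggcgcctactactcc
Atf3: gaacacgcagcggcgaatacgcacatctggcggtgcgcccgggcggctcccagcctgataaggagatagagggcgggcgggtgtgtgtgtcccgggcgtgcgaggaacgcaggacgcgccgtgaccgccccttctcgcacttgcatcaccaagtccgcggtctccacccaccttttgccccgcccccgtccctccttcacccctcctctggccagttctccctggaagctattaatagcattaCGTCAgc
Nr4a1: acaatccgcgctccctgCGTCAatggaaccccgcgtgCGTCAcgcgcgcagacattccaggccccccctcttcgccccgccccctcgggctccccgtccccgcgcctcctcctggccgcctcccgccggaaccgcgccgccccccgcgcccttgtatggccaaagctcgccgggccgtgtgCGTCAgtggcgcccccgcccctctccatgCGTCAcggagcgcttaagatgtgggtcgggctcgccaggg
Dusp1: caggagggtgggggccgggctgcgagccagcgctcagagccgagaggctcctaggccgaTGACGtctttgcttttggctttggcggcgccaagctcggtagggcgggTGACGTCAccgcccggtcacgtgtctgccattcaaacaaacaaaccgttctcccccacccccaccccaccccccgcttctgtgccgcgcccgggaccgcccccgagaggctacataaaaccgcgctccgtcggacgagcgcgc
Zfp36: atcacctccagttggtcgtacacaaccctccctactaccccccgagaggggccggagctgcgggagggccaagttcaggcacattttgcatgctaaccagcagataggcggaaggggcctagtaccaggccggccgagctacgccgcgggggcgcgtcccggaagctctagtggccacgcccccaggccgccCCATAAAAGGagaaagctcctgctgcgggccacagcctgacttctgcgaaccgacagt
Ppp1r15a: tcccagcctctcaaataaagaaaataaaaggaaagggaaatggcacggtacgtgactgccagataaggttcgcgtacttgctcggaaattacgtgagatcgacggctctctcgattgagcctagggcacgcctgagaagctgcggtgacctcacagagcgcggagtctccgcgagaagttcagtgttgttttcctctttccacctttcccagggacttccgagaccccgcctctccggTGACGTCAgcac
Fos and Nr4a1 lie on the plus strand and the other 4 on the minus strand. In the GENCODE annotation the outermost ends of Atf3, Nr4a1, Dusp1 and Zfp36 lie further upstream, so these 4 stretches fall inside the annotated gene span.

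The capitals mark the cAMP response element TGACGTCA, which binds CREB and ATF proteins, its core TGACG, the TATA box TATAAA and the CArG box bound by serum response factor, each on either strand. Fos held 2 core matches and a TATA box, Atf3 held 1 core match, Nr4a1 held 4, Dusp1 and Ppp1r15a each held the complete element, Dusp1 with 1 further core match, and Zfp36 held a CArG box. RefSeq windows, with the 50 bases after the start added, were found for 33 of the 42 members. TGACGTCA occurred in the windows of 4 of these 33 genes (Btg2, Dusp1, Maff and Ppp1r15a, 12.1%) and of 2.03% of all 27025 genes in the table. TGACG occurred in 51.5% of the member genes and 23.0% of all genes, where a complete element counts as well because it holds 2 overlapping cores. TATAAA occurred in 30.3% against 15.7%, and the CArG box in 6.06% (2 genes, Zfp36 and Egr2) against 1.81%. Bases further upstream and the 9 members without a window were not searched. The AP-1 site TGANTCA was found in 1 member, Zfp36l1 (3.03% against 8.97%), and the heat shock element, alternating GAA and TTC units, in none (0% against 0.662%). A match describes letters in these windows and is not a measured binding site. In gene structure, 10 of 42 members have 1 exon (23.8%), against 1.74% of 5586 protein-coding genes with a measurable ratio, at nearly the same median transcript length of 2766.5 against 2792 bases.

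Over all kept cells the members were more abundant in the GFP+ library. They made up 1.07% of its UMIs and 0.710% of those of the GFP- library. Among the AP-1 genes, Atf3, a stress-induced partner of JUN, stood at 112 CPM in the GFP+ library and 33.2 CPM in the GFP- library. Jund, an AP-1 gene that most cells keep on, stood at 1628 and 758 CPM, Fos at 586 and 333 CPM and Junb at 744 and 436 CPM, in the same order of libraries. The GFP+ value was the higher in each. Of the 42 members, 38 passed a filter of 20 CPM on the mean of both levels, and 8 of these 38 were at least 2-fold higher in GFP+, where 2.82% of all 5646 genes that passed were. No member was at least 2-fold lower, where 0.319% of all genes were. The median log2 ratio of the 38 was 0.62, and that of all genes -0.11. Fosl1, Egr2, Egr3 and Nr4a2 did not pass the filter.

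The 8 were spread over the factors and the feedback genes. Their ratios of levels, with 95% intervals that here and below cover counting error only, were 3.38 (3.13 to 3.64) for Atf3 and 2.15 (2.11 to 2.18) for Jund, 2.16 (1.94 to 2.41) for Maff, a small MAF factor without an activation domain, and 2.04 (1.98 to 2.09) for Cebpb, a factor of stress and inflammation. Dusp1, the phosphatase that switches off MAP kinases, stood at 215 CPM in the GFP+ library and 78.4 CPM in the GFP- library, a ratio of 2.75 (2.61 to 2.89). Zfp36, which destroys AU-rich mRNAs, had a ratio of 2.32, Ier3 one of 2.40 and Trib1, a pseudokinase that marks C/EBP factors for degradation, one of 2.05. The other AP-1 genes that passed had ratios between 1.23 (Jun) and 1.76 (Fos). Of the 38 ratios 36 were above 1, and 30 of the intervals lay wholly above 1. Hsp90aa1, the stress-inducible HSP90, was the exception whose interval lay below 1, at 565 CPM in the GFP+ library and 825 CPM in the GFP- library, a ratio of 0.685 (0.668 to 0.703). Dividing by the median ratio of all genes raised the members' median to 0.73 and left Hsp90aa1 below 1.

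**Figure D1:**
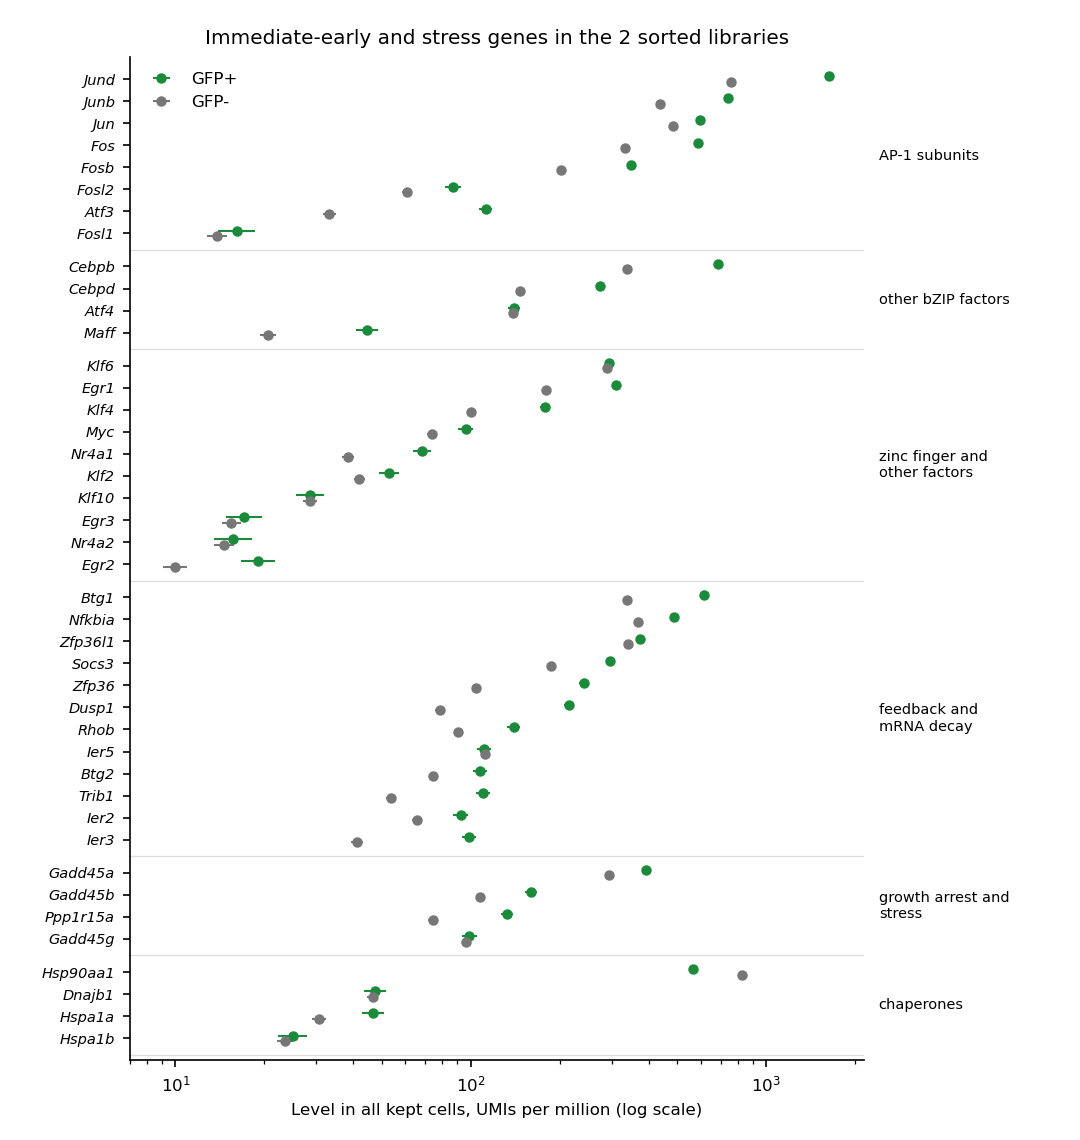
Level of each of the 42 members in all kept cells of the GFP+ library (604 cells) and the GFP- library (2683 cells), in CPM on a log axis, with 95% Poisson intervals that cover counting error only. The GFP+ point lies to the right for most members, as for Atf3 (112 against 33.2), and to the left for Hsp90aa1 (565 against 825).

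The count moved with the makeup and depth of the libraries. Lyz2-positive cells made up 12.3% of GFP+ and 1.94% of GFP- cells, and Erfe-high cells 8.94% and 0.745%. Dusp1, Zfp36 and Ier3 were among the members high in Lyz2-positive cells of both libraries, as given below. Without the Erfe-high cells 4 of 38 members were at least 2-fold higher (2.68% of all genes), without Erfe-high, Lyz2-positive and Rgs5-positive cells 2 (0.885%), and with the cell groups weighted alike in both libraries 1 (0.890%). Within cells of 5000 to 15000 UMIs, 187 GFP+ and 1211 GFP-, the count was 24 of 41 (9.18% of all genes), none was lower (4.25%) and the median log2 ratio was 1.11. The part of makeup and depth in the difference was not tested.

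Inside single cell groups the GFP+ excess was unequal. In Chodl-high cells 8 of 41 members were at least 2-fold higher (1.91% of all genes) and 0 lower (0.531%), with a median log2 ratio of 0.64. Atf3 was at 212 and 59.4 CPM in GFP+ and GFP-, a ratio of 3.57 (3.03 to 4.21). Nr4a1, an orphan nuclear receptor, had a ratio of 2.47 (2.04 to 3.0), Maff one of 2.44 (1.98 to 3.0) and Klf4, a Krüppel-like factor, one of 2.37 (2.13 to 2.63). Jund, Ppp1r15a, which lets translation resume after stress, Cebpd and Btg1, an antiproliferative gene, had ratios between 2.04 and 2.23. The set of 8 thus held members of every role but the chaperones. In the cells of 5000 to 15000 UMIs 16 of 41 were at least 2-fold higher (5.79% of all genes).

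In Erfe-high cells 6 of 40 members were at least 2-fold higher and 2 lower, against 9.54% and 10.5% of all genes, so these counts were near the background. With the group limits per 10000 UMIs halved (61 and 30 cells), 20 of 38 members were at least 2-fold higher (6.96% of all genes), so the count depends on that limit. The median log2 ratio was 0.63. Jund stood at 8331 CPM in the GFP+ library and 2912 CPM in the GFP- library, a ratio of 2.86 (2.58 to 3.18), and Atf3, Cebpd, Nr4a1 and Rhob, a small GTPase, had ratios of 2.47, 2.41, 2.10 and 4.03. Fos had close levels in both, at 1495 and 1441 CPM, a ratio of 1.04 (0.880 to 1.23). The other high ratio was that of Dnajb1, a co-chaperone of HSP70, 6.43 (2.09 to 32.1), which rests on 3 UMIs in the GFP- cells. Ier5 and Gadd45g were the members at least 2-fold lower, with ratios of 0.422 (0.277 to 0.646) and 0.432 (0.225 to 0.840).

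In Myog-positive cells 4 of 34 members were at least 2-fold higher (0.916% of all genes, and 0.916% lower, with 0 members lower). They were Atf3, Nr4a1, Cebpb and Cebpd, with ratios of 3.37 (2.65 to 4.28), 3.0 (2.39 to 3.75), 2.45 (2.23 to 2.69) and 2.09 (1.83 to 2.39). In Lyz2-positive cells 2 of 38 members were higher (2.31% of all genes), Maff and Ppp1r15a, and 1 lower (7.63%), Klf10. The median log2 ratio there was 0.02, so the median member had nearly the same level in the macrophage-like cells of both libraries. Fos, Junb and Cebpb had ratios of 1.24, 0.994 and 1.03 there. In the 40 and 32 such cells of 5000 to 15000 UMIs, 2 of 38 members were higher (3.89% of all genes) and 1 lower (9.13%).

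The remaining cells gave a smaller difference: 0 of 36 members were at least 2-fold higher or lower (0.965% and 0.127% of all genes), and the median log2 ratio was 0.24. Fos was at 354 and 279 CPM in GFP+ and GFP-, Jun at 487 and 471 CPM and Jund at 1179.9 and 730.2 CPM. The largest ratios were those of Jund, 1.62 (1.57 to 1.66), Zfp36, 1.58 (1.43 to 1.74), and Klf2, 1.57 (1.38 to 1.77). Depth moved with this result. Within 5000 to 15000 UMIs, 29 GFP+ against 631 GFP- cells, 18 of 38 members were at least 2-fold higher (8.56% of all genes) and 0 lower (3.76%), with a median log2 ratio of 0.90 and ratios of 5.77 for Atf3 and 2.56 for Jund. The satellite markers in these cells were at 2222 and 1181 CPM. At all depths the macrophage markers summed to 143 and 12.6 CPM in the remaining cells and the 5 fibro-adipogenic markers to 1225 and 459 CPM, and their part in the result was not tested. Neither the Mki67-positive (19 GFP+ cells) nor the Rgs5-positive cells (0 GFP+ cells) gave a ratio between libraries.

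**Figure D2:**
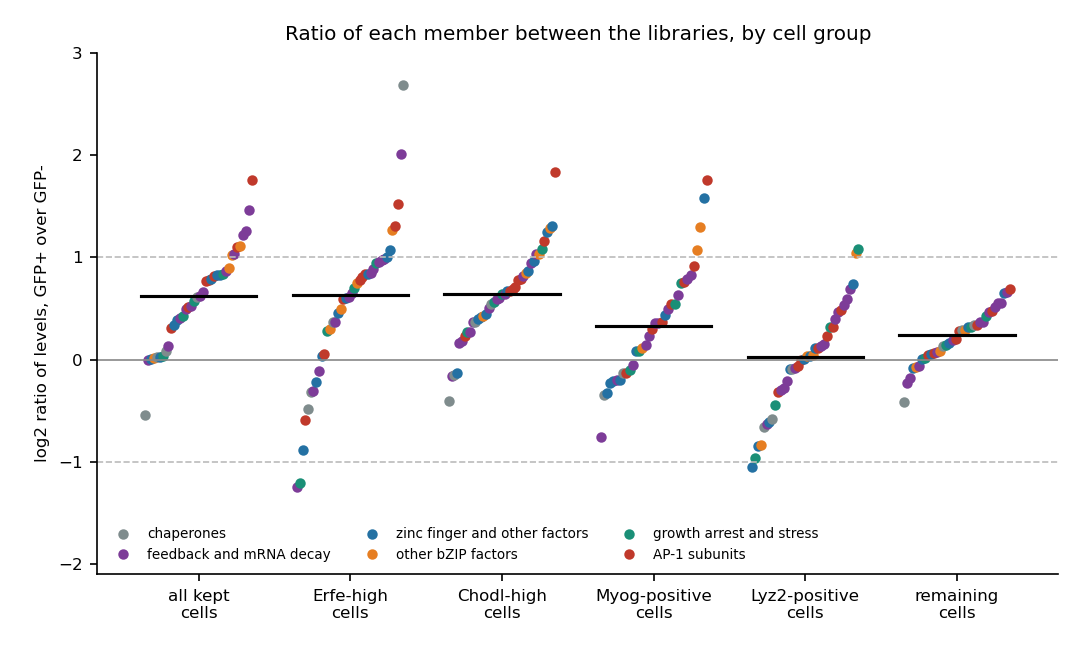
log2 ratio of the level in GFP+ over that in GFP- for each member that passed the 20 CPM filter, 1 point per member, in all kept cells and in each cell group with at least 20 cells in both libraries. The median is 0.62 in all kept cells, 0.64 in Chodl-high, 0.02 in Lyz2-positive and 0.24 in the remaining cells.

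The members' share of UMIs spanned a wider range over cell groups than between the libraries. They took 3.53% of the UMIs of Erfe-high cells in GFP+ and 2.15% in GFP-, and 1.83% and 1.15% in Chodl-high cells. The values were 1.68% and 1.52% in Lyz2-positive cells and 2.18% in Rgs5-positive cells. They were lower in the remaining cells (0.731% and 0.641%), in Myog-positive cells (0.677% and 0.525%) and in Mki67-positive cells (0.897% and 0.555%). Barcodes of 1 to 100 UMIs, taken as empty droplets, held 0.900% and 0.621%, against 1.07% and 0.710% in all kept cells. The order of the groups was nearly the reverse of their median depth, which ran from 6946.5 and 6905.5 UMIs in Erfe-high cells to 29981 and 24293 in Mki67-positive cells.

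**Figure D3:**
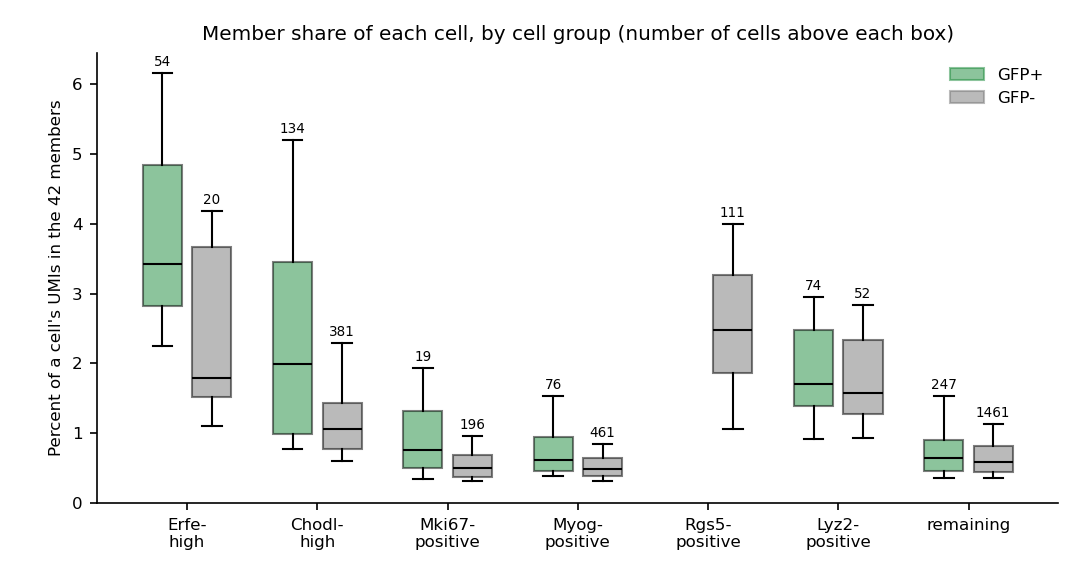
Percent of each cell's UMIs that fell in the 42 members, by cell group and library: boxes show quartiles with the median, whiskers the 10th and 90th percentile over cells. The medians for Erfe-high cells are 3.42% (GFP+) and 1.79% (GFP-), and those for the remaining cells 0.641% and 0.594%.

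Over single cells, the median cell had 0.968% of its UMIs in members in GFP+ and 0.631% in GFP-, and the AP-1 genes alone gave 0.348% and 0.193%. After each cell was thinned to 5000 UMIs, the median number of members with a UMI was 25 and 22.5 in Erfe-high cells, 22 and 18 in Chodl-high cells, 27 in Rgs5-positive cells and 15 and 14 in the remaining cells. Shallower cells, 66 GFP+ and 190 GFP-, were left out of the thinned values.

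With cells of all depths pooled, Erfe-high cells had the highest levels of AP-1 genes among the myogenic groups. In GFP+ 27 of 39 members were at least 2-fold above the remaining cells, where 13.7% of all genes were, and 0 lower (15.9%). In GFP- 28 of 39 were higher (13.5%) and 0 lower (12.8%), and 26 of 39 were higher in both libraries (7.30% of 4930 genes). All 8 AP-1 subunits were among the 26. Of these, Fosl1 was under 20 CPM in the remaining cells and passed the filter only through the Erfe-high cells. In GFP- passing the filter already required a Fosl1 ratio of at least 2, so its call there was fixed. In GFP+ its call rests on 13 UMIs in 54 cells. The median log2 ratios were 2.08 and 1.72, against -0.09 and 0.01 for all genes. No macrophage marker was found in the 20 GFP- cells, and the list summed to 20.9 CPM in the GFP+ cells.

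Among the AP-1 genes Fos was at 1495 CPM in the GFP+ library and 1441 CPM in the GFP- library, ratios over the remaining cells of 4.22 (3.84 to 4.63) and 5.16 (4.46 to 5.95). A single GFP- cell held 32.5% of the Fos UMIs of its 20 cells, and without the 1 cell with the most Fos UMIs in each library the log2 ratio was 1.89 in GFP- and 1.80 in GFP+. Jund was at 8331 and 2912 CPM, ratios of 7.06 (6.77 to 7.36) and 3.99 (3.6 to 4.41), and before thinning every Erfe-high cell had a UMI of it. Atf3, at 813 and 329 CPM, had the largest ratios of all members, 32.2 (26.4 to 39.4) and 18.1 (13 to 24.6). Fosb, which forms AP-1 as FOS does, was at 2062 and 1156 CPM, Junb at 2268 and 1295 CPM and Jun at 2156 and 1259 CPM, with ratios between 2.67 and 9.93. Each AP-1 gene was thus above the remaining cells of its own library.

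The C/EBP genes were high in both libraries. Cebpb was at 2966 CPM in the GFP+ library and 2100.0 CPM in the GFP- library, ratios of 11.4 (10.6 to 12.4) and 8.59 (7.6 to 9.67), and Cebpd, at 1835 and 761 CPM, had ratios of 12.9 and 6.55. Maff, at 319 and 190.2 CPM, had ratios of 16.4 and 11.2. Atf4, the translationally controlled factor of the integrated stress response, differed less, with ratios of 1.76 and 1.36. Among the zinc finger and nuclear receptor genes the values differed. Egr1, a serum-responsive factor, was at 1330.2 and 666 CPM with ratios of 7.05 and 4.4, Klf4 had ratios of 9.52 and 7.0, Nr4a1 13.2 and 9.35, and Myc 5.02 and 5.10. Klf6 was the low value, with ratios of 0.510 and 0.889.

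Feedback genes were high in the same cells. Trib1 was at 810.1 and 439 CPM, ratios of 14.7 and 9.07, Btg2, an antiproliferative p53 target, had ratios of 6.56 and 3.19, and Zfp36 4.70 and 4.85. Socs3, the inhibitor of JAK-STAT signalling, had ratios of 3.70 and 3.03, and Dusp1 4.07 and 3.04. Nfkbia, the inhibitor of NF-kappaB, stayed under 2-fold, at 1.39 and 1.80. Of the growth arrest genes Gadd45a (4.57 and 3.81) and Ppp1r15a (5.37 and 4.13) passed 2-fold in both libraries, and Gadd45b (1.69 and 1.18) in neither. Of the chaperones Hspa1a did (7.52 and 6.40), although Hspa1a and Hspa1b are near-identical copies whose reads the counting may have split, so both are uncertain. Hsp90aa1 was at the level of the remaining cells, with ratios of 1.07 and 1.0.

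Depth was lower in Erfe-high cells, and the comparison within 5000 to 15000 UMIs (38 Erfe-high and 29 remaining GFP+ cells) gave smaller ratios. There 20 of 39 members were at least 2-fold higher (7.6% of all genes) and 2 lower (15.9%), with a median log2 ratio of 1.05. Atf3 had a ratio of 6.63, Jund 3.35, Cebpb 3.40 and Fos 2.79. The GFP- library had too few Erfe-high cells in this range, 14, for a ratio. Within 5000 to 15000 UMIs the members took 3.40% of UMIs in Erfe-high and 2.47% in Chodl-high GFP+ cells. In Chodl-high cells of 1000 to 5000 UMIs they took 5.22% (GFP+) and 3.49% (GFP-). AP-1 genes alone were not compared between these 2 groups at equal depth. In the 21 remaining GFP+ cells of 1000 to 5000 UMIs, Atf3 was at 768 CPM, Jund at 6293 CPM and Fos at 540 CPM. In the 197 remaining GFP+ cells over 15000 UMIs they were at 13.9, 1079 and 342 CPM. The ratios over the remaining cells at all depths thus rest mostly on deep cells.

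**Figure D4:**
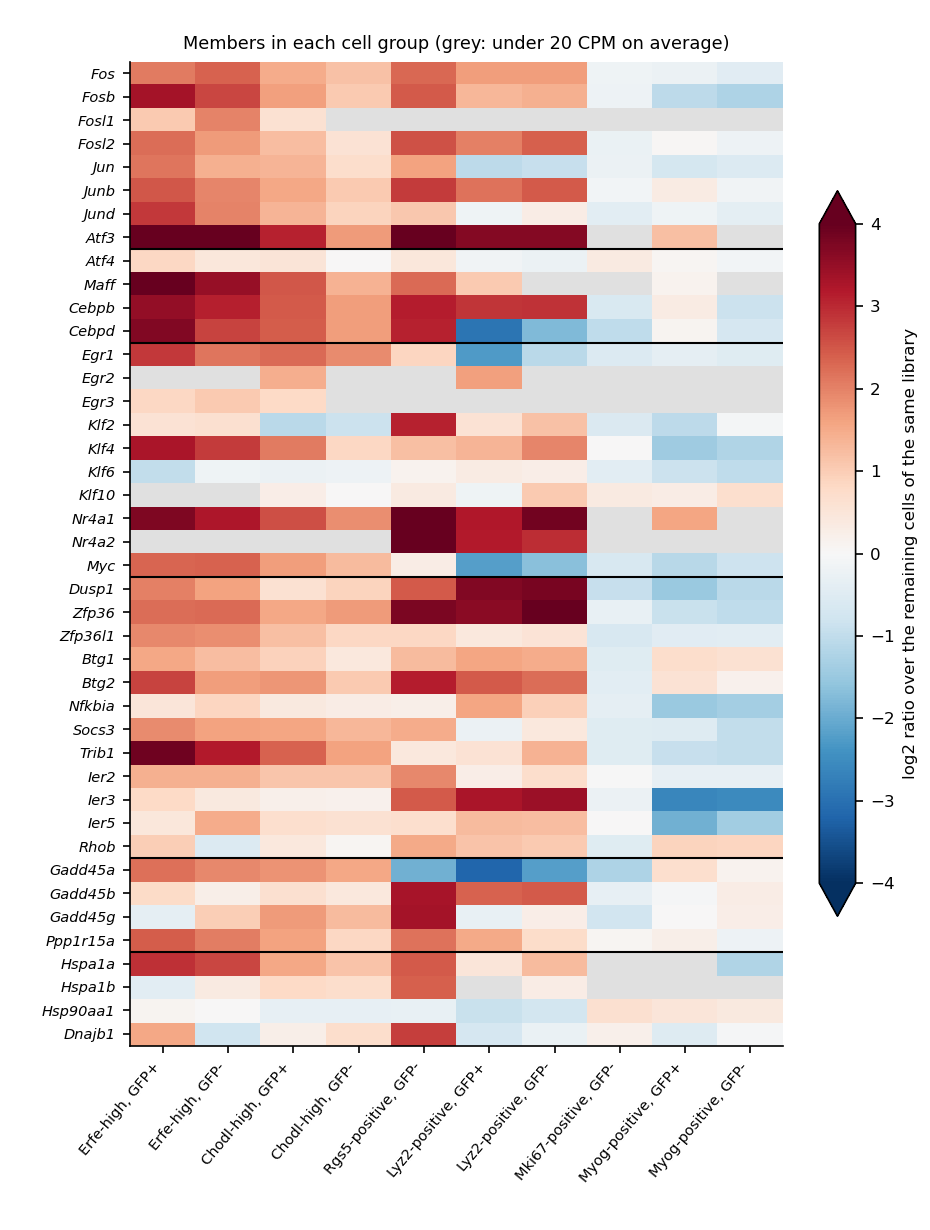
log2 ratio of each member's level in a cell group over the remaining cells of the same library, by role of the gene. Colours stop at -4 and 4, and grey marks a gene with a mean level under 20 CPM. AP-1 rows are positive in both Erfe-high columns, and Ier3 and Ier5 are the most negative in both Myog-positive columns.

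Chodl-high cells also had more of many members, with smaller ratios. In GFP+ 25 of 41 members were at least 2-fold above the remaining cells (5.25% of all genes) and 1 lower (4.6%), and in GFP- 18 of 38 were higher (2.59%) and 0 lower (2.82%). The 18 were higher in both libraries, where 2.32% of 5206 genes were. The median log2 ratios were 1.36 and 0.89. Atf3 was at 212 and 59.4 CPM with ratios of 8.42 (6.94 to 10.3) and 3.27 (2.78 to 3.83), and Egr1 at 899 and 567 CPM with ratios of 4.77 (4.41 to 5.15) and 3.74 (3.55 to 3.94). Among the others above 2-fold in both libraries were Nr4a1 (6.02 and 3.63), Maff (5.56 and 2.63), Cebpb (5.44 and 3.21), Cebpd (5.31 and 3.19), Trib1 (5.11 and 3.03), Gadd45a (3.47 and 2.90) and Fos (2.80 and 2.23). Klf2, a factor of quiescence in several cell types, was the member at least 2-fold lower in GFP+, with ratios of 0.472 (0.341 to 0.639) and 0.553 (0.439 to 0.689). Klf6 (0.841 and 0.871) and Hsp90aa1 (0.803 and 0.795) also had intervals below 1 in both libraries. Within 5000 to 15000 UMIs the counts dropped to 11 of 39 in GFP+ (4.15% of all genes, with 2 lower against 9.65%) and 7 of 38 in GFP- (1.26%). In GFP+ Klf2 then had a ratio above 1, 1.15, and Hspa1a one below 1, 0.593, against 2.95 at all depths. The 7 in GFP- were Cebpb (2.3), Egr1 (2.17), Zfp36 (2.19), Trib1 (2.18), Cebpd (2.10), Nr4a1 (2.04) and Hspa1a (2.50).

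Differentiating cells had less of several feedback genes. In Myog-positive cells 8 of 36 members were at least 2-fold lower in GFP+ (9.24% of all genes) and 2 higher (5.41%), and 9 of 34 lower in GFP- (5.85%) and 0 higher (4.52%). Fosb, Klf4, Dusp1, Nfkbia, Ier3 and Ier5 were lower in both libraries, 6 of 33 members against 5.36% of 5170 genes. Ier3, an early response gene of cell survival, was at 9.30 CPM in the GFP+ library and 6.61 CPM in the GFP- library, against 57.0 and 38.8 CPM in the remaining cells, ratios of 0.163 (0.0985 to 0.256) and 0.170 (0.130 to 0.221). Ier5, a cofactor of the heat shock factor HSF1, had ratios of 0.263 (0.196 to 0.346) and 0.380 (0.341 to 0.421), Nfkbia 0.360 (0.320 to 0.403) and 0.392 (0.371 to 0.414), and Dusp1 0.360 (0.279 to 0.459) and 0.479 (0.421 to 0.543). Fos itself differed less, at 299 and 205 CPM, ratios of 0.846 and 0.735. Both Fos levels lay below those in the empty droplets of the same libraries. The 2 members at least 2-fold higher in GFP+ were Nr4a1, 2.97 (2.31 to 3.82), and Atf3, 2.32 (1.82 to 2.97). Hsp90aa1 was also on the high side, with ratios of 1.39 and 1.33, as were Btg1 (1.64 and 1.51) and Rhob (1.86 and 1.83). Within 5000 to 15000 UMIs 5 of 38 GFP- members were at least 2-fold lower (6.43% of all genes).

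Cycling cells of the GFP- library had slightly lower levels of most members. In the GFP- Mki67-positive cells 0 of 33 members were at least 2-fold higher (5.01% of all genes) and 2 lower (1.2%): Gadd45a, which restrains the cycle at its G2 checkpoint, at 112 against 263 CPM, a ratio of 0.427 (0.392 to 0.464), and Cebpd, 0.498 (0.441 to 0.560). The median log2 ratio was -0.35, against 0.05 for all genes, and 25 of the 33 intervals lay wholly below 1 and 3 above. Hsp90aa1 was the highest, at 1167 CPM, a ratio of 1.57 (1.52 to 1.62). In the 19 GFP+ cells, too few for a ratio, Fos read 1121 CPM, but 1 cell held 222 of its 683 UMIs. The members together took 0.897% of the UMIs of these 19 cells, against 0.731% in the remaining GFP+ cells. The share was thus not lower in GFP+. In the 29 GFP- Mki67-positive cells of 5000 to 15000 UMIs, 3 of 38 members were higher (9.02% of all genes) and 2 lower (3.07%), and the median log2 ratio was on the other side of 0, at 0.10.

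Rgs5-positive cells, found in the GFP- library alone, had high levels of NR4A receptors and of 3 of the 4 chaperones. Of 39 members 28 were at least 2-fold above the remaining cells (16.8% of all genes) and 1 lower (6.47%), with a median log2 ratio of 2.26. Nr4a1 was at 672 against 14.1 CPM, a ratio of 47.7 (41.9 to 54.5), and its relative Nr4a2 had a ratio of 20.7 (17.2 to 24.9). Atf3 (19), Zfp36 (13.6), Gadd45g (10.1), Gadd45b (9.75), Cebpb (8.84), Btg2 (8.79), Cebpd (8.40) and Klf2, a shear-responsive factor of vessels (8.35), came next. Among the chaperones Dnajb1 was at 262 CPM, a ratio of 6.86 (6.0 to 7.82), and Hspa1a at 156 CPM, a ratio of 5.46 (4.60 to 6.45), while Hsp90aa1 had a ratio of 0.820. The third high chaperone was Hspa1b, the near-identical copy of Hspa1a, so these 2 are uncertain as separate values. Gadd45a went the other way, at 69.8 CPM and a ratio of 0.265 (0.210 to 0.330). At 5000 to 15000 UMIs 27 of 39 were higher (19.3% of all genes), with a median log2 ratio of 2.13.

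Lyz2-positive cells had high levels of several feedback genes and AP-1 subunits, and low levels of a few members. In each library 8 of 12 feedback genes and 5 of 7 AP-1 subunits were at least 2-fold above the remaining cells. In GFP+ 21 of 39 members were at least 2-fold above the remaining cells and 5 lower, where 20.7% and 25% of all genes were, and in GFP- 21 of 38 and 4, where 19.6% and 17.4% were. Dusp1 was at 1258 CPM in the GFP+ library and 912 CPM in the GFP- library, ratios of 13.2 (11.9 to 14.5) and 14 (12.7 to 15.5), and Zfp36 at 1223 and 1119 CPM, ratios of 12.2 (11.1 to 13.5) and 17.7 (16.1 to 19.4). Ier3 (9.56 and 10.7), Nr4a1 (9.12 and 14.5) and Gadd45b (5.09 and 5.51) were also high. In both libraries 17 of 37 members were at least 2-fold higher (17.6% of 5335 genes) and 4 lower (14.9%). The 4 were Cebpd, Egr1, Myc and Gadd45a, no larger a share than over all genes. Gadd45a stood at 29.2 and 56.9 CPM, ratios of 0.110 (0.0760 to 0.155) and 0.216 (0.148 to 0.305). Egr1 stood at 39.5 and 71.1 CPM, under its 149 and 116 CPM in empty droplets. Jun and Junb differed, with Jun at ratios of 0.487 and 0.525 and Junb at 4.50 and 5.50. Limited to 5000 to 15000 UMIs, the GFP+ counts were 19 of 41 higher (21% of all genes) and 10 lower (32.7%), and Fosb, Maff and Klf4 had ratios of 0.965, 0.917 and 0.809, against 2.54, 2.07 and 2.55 at all depths.

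How many cells carried a member also differed. After thinning to 5000 UMIs, Fos had a UMI in 63.4% of GFP+ cells (95% binomial interval 59.2 to 67.5) and 48.6% of GFP- cells (46.6 to 50.6), and unthinned in 81.3% and 70.7%. Atf3 had one in 27.1% and 9.23% of thinned cells. In Erfe-high GFP+ cells Atf3 had a UMI in 74.4% of the 39 cells deep enough, against 7.96% of 226 remaining GFP+ cells. None of the cell groups is known to lack these genes, so no background share could be taken from one, and empty droplets held Fos at 371 and 286 CPM, against 586 and 333 CPM in all kept cells. In the remaining and the Myog-positive cells Fos lay below the empty-droplet level of the same library. The part of free RNA in the Fos levels and shares was not tested. Counts of some members sat in few cells: among the 54 Erfe-high GFP+ cells, the 6 with most UMIs of the gene held 57.5% of Fos UMIs and 76.7% of Hspa1a UMIs, but 17.8% of Jund UMIs.

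Depth moved with the members inside every group where it could be read. In the remaining GFP+ cells they took 2.34% of UMIs in cells of 1000 to 5000 UMIs, 1.34% from 5000 to 15000 and 0.686% above 15000 (21, 29 and 197 cells). In the remaining GFP- cells the same shares were 1.15%, 0.760% and 0.577% (108, 631 and 722 cells), and in Chodl-high cells 5.22%, 2.47% and 1.09% in GFP+ and 3.49%, 1.13% and 0.984% in GFP-. The satellite markers went the same way, from 2991 to 2222 and 1034 CPM in the remaining GFP+ cells and from 1369 to 1181 and 907 CPM in the GFP- cells. The macrophage markers were at 395, 10.3 and 148 CPM and at 210.4, 20.0 and 5.44 CPM. Hsp90aa1 did not follow, at 623, 449 and 563 CPM in GFP+ and 504, 594 and 817 CPM in GFP-. The part of depth in the results above was not tested.

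**Figure D5:**
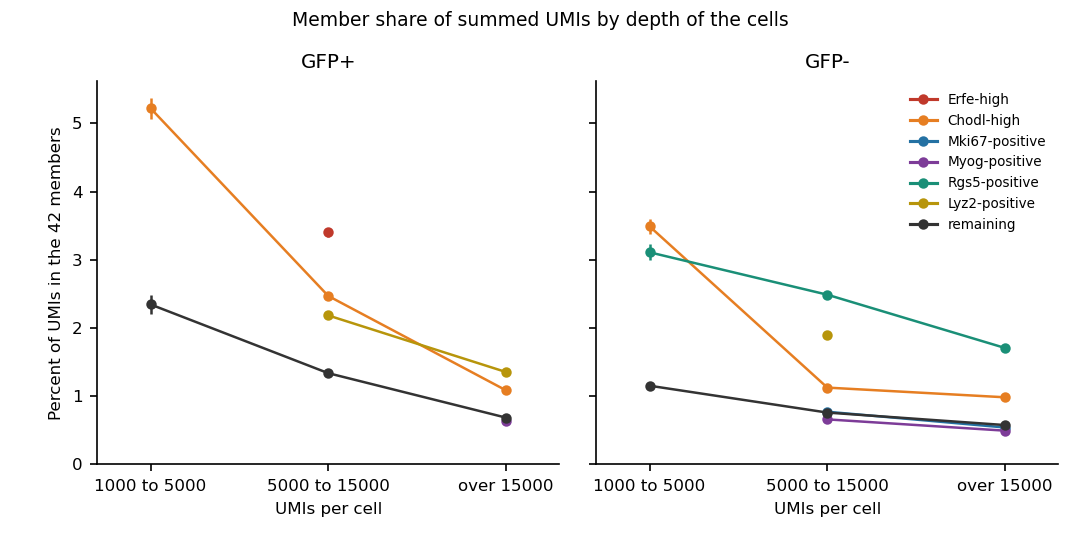
Percent of summed UMIs in the 42 members against the depth of the cells (UMIs per cell, 3 classes) for each cell group, GFP+ on the left and GFP- on the right, for classes of at least 20 cells. The share falls with depth in each line, from 5.22% to 1.09% in Chodl-high GFP+ cells and from 1.15% to 0.577% in the remaining GFP- cells.

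The members did not all share 1 pattern. Over the 12 pools of a cell group and library with at least 20 cells, the Pearson correlation of log2 levels with Fos, given as a description because pools of a library share its depth, was 0.99 for Cebpb, 0.96 for Atf3, Fosb and Junb, 0.94 for Ppp1r15a and 0.93 for Fosl2. Cebpb and Atf3 ranked 1 and 2 among 5634 genes. The non-members ranked highest were Pmp22 (0.96), Csrnp1 (0.96), Ppard, Tiparp, Klf13, Rgcc, Ppp2r5a and Ccnl1, and the median of all genes was -0.11. Gadd45a (0.07), Klf10 (-0.45) and Hsp90aa1 (-0.63) did not follow Fos.

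Related genes outside the set were read from 4 lists. In Erfe-high cells 11 of 25 further immediate-early genes were at least 2-fold higher and 4 lower in GFP+, and 11 of 23 and 3 in GFP-. The shares of all genes were 13.7% higher and 15.9% lower in GFP+, and 13.5% and 12.8% in GFP-. Errfi1, a feedback inhibitor of the EGF receptor, was at 2062 against 211 CPM (GFP+) and 1837 against 187 CPM (GFP-) in Erfe-high against remaining cells, ratios of 9.78 and 9.82, and Klf9, a glucocorticoid-responsive factor, had ratios of 6.76 and 6.5. The integrated stress and unfolded protein response genes gave 1 of 10 higher and 2 lower in GFP+, and 2 of 10 and 1 in GFP-, near those shares. Of the heat shock genes 3 of 14 were higher and 2 lower in GFP+ and 3 of 14 and 3 in GFP-, with the small chaperone Cryab at ratios of 4.79 and 3.42. The NF-kappaB list gave 6 of 10 higher and 1 lower in GFP+ and 3 of 6 and 0 in GFP-, with the chemokine Cxcl1 at 3.95 and 3.50.

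In the other groups the lists differed. In Chodl-high cells 7 of 24 immediate-early genes were higher and 1 lower in GFP+, and 4 of 23 and 1 in GFP-, while 0 of 14 heat shock genes were in either library, against 5.25% and 4.6% of all genes in GFP+ and 2.59% and 2.82% in GFP-. In Rgs5-positive cells 16 of 27 immediate-early genes were higher and 3 lower (16.8% and 6.47% of all genes), with Nr4a3, the third NR4A receptor, at a ratio of 52.2 (39.6 to 69.3) and the matricellular gene Ccn2 at 19.5 (15.9 to 23.8). The NF-kappaB list gave 5 of 10 higher and 0 lower there, led by the cytokine Il6 at 1510.2 against 6.17 CPM, a ratio of 245 (207 to 292). In Lyz2-positive cells 8 of 12 NF-kappaB genes were higher in each library (20.7% of all genes in GFP+, 19.6% in GFP-), among them Tnfaip3, which ends NF-kappaB signalling (22.0 and 19.1), and 8 of 13 and 4 of 14 heat shock genes were lower (25% and 17.4%). In Myog-positive cells 4 of 7 NF-kappaB genes were lower in GFP+ (9.24% of all genes) and 3 of 6 in GFP- (5.85%), and 2 of 15 and 3 of 15 heat shock genes were higher (5.41% and 4.52%). Between the libraries 1 of 24 immediate-early genes (Pim1, 2.55), 0 of 11 stress response genes, 0 of 15 heat shock genes and 3 of 11 NF-kappaB genes (Ccl2 3.86, Rel 2.76 and Tnfaip3 2.38) had a ratio of at least 2 over all kept cells (2.82% of all genes), and Il6 had a ratio of 0.130. In GFP+ the Lyz2-positive cells held 283 of 448 Rel UMIs and 357 of 541 Tnfaip3 UMIs. Levels in Lyz2-positive cells of GFP+ and GFP- were 243 and 226 CPM for Rel, and 307 and 309 CPM for Tnfaip3. Rgs5-positive cells, absent from GFP+, held 1732 of 1901 Il6 UMIs in GFP-. Ccl2 had a ratio of 5.50 between the remaining cells of the libraries. The part of makeup in these ratios was not tested.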

How the data were processed

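The deposited files hold raw UMI counts per gene and barcode, 1 library per sorted fraction, for every barcode and not only for cells. They were made with Cell Ranger 4, per the file headers, and the submitters' processing notes name Cell Ranger, Seurat and mm10. Total counts were 13928952 in GFP+ and 49709323 in GFP-. Cells were filtered and grouped as described above. A cell needed at least 3 UMIs of the group's gene, and per 10000 UMIs at least 2 of Lyz2, Rgs5, Myog or Mki67 (positive) or 3 of Erfe or Chodl (high), and joined the first group met in the order Lyz2, Rgs5, Myog, Mki67, Erfe, Chodl. No doublet caller was used, and 1 cell that met several of Lyz2, Rgs5 and Myog was left out of the groups. Counts were summed over cells and scaled to 1e6 (CPM). These 3′ tag counts were not scaled to gene length, so levels are compared within a gene only. Levels have exact Poisson and ratios exact Clopper-Pearson intervals. A ratio needed pools of at least 20 cells, 10 UMIs and a mean of 20 CPM, and was counted when at least 2 either way. Members with such a ratio or a high mean could be named. Genes outside the set were named by ratio from 4 lists or by likeness to Fos of log2(CPM + 10). Members and lists were chosen with earlier results of these data known. The calls and intervals were checked on pooled counts simulated with counting error only. That check does not cover the uneven spread of UMIs over cells. The tools were matplotlib 3.10.9, pandas 2.3.3, scipy 1.17.1, numpy 2.4.6 and Python 3.11.15. Alternatives limiting depth or leaving out 1 cell were added after seeing the data.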

Additional observations from a re-analysis of the deposited data

Results flagged for a closer look

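For 3 members the GFP+ to GFP- ratio of levels was at least 1.5-fold above 1 in some cell groups and at least 1.5-fold below 1 in another, with counting intervals that did not include 1. Egr1, the serum-responsive zinc finger factor, had ratios of 2.0 in Erfe-high cells, 1.59 in Chodl-high cells and 0.555 in Lyz2-positive cells. Klf4 had ratios of 2.37 in Chodl-high cells and 0.657 in Lyz2-positive cells. Trib1, the pseudokinase that marks C/EBP factors for degradation, had ratios of 1.85 in Erfe-high cells, 1.92 in Chodl-high cells and 0.646 in Lyz2-positive cells. With 1 library per fraction the difference between the cell groups was not tested.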

How the results depend on the processing

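For the 21 leading counts, medians and shares, 184 values were computed under other settings, and 148 stayed close to the value given above. A median near 0 could change sign and still count as close. Among the other counts and medians 247 of 296 stayed close. For single genes 3901 of 4964 ratios stayed within their counting interval and 1058 moved out of it. The other 5 were ratios of at least 2-fold that went to the other side of 1. Smaller ratios that crossed 1 are counted among the 3901 or the 1058. Over all kept cells, the count of members at least 2-fold higher in GFP+, 8 above, was 4 without Erfe-high cells, 2 without Erfe-high, Lyz2-positive and Rgs5-positive cells, 16 when each cell weighed equally, 1 with cell groups weighted by pooled shares, 20 at a ratio of 1.5 and 24 within 5000 to 15000 UMIs. The median log2 ratio, 0.62 above, was 0.73 divided by the median ratio of all genes, 0.72 at 50 CPM, 0.70 at 5% mitochondrial UMIs, 0.78 with cells weighing equally, 0.47 with pooled shares and 1.11 within 5000 to 15000 UMIs. With group limits halved, 20 of 38 members were higher in GFP+ Erfe-high cells, not 6 of 40 (6.96% of all genes). Within 5000 to 15000 UMIs, 16 (not 8) were higher in GFP+ Chodl-high cells and 18 (not 0) in the remaining cells, and Chodl-high over remaining cells gave 11 (not 25) in GFP+ and 7 (not 18) in GFP-. In GFP- Myog-positive cells the count lower, 9 above, was 5 at 50 CPM, 14 at a ratio of 1.5 and 5 within 5000 to 15000 UMIs. In GFP- Mki67-positive cells the count lower, 2 above, was 4 with limits halved, with a total without mitochondrial and ribosomal protein genes or at 5 CPM, 1 with cells in several groups, at 5000 UMIs or at 5% mitochondrial UMIs, and 7 at a ratio of 1.5. The median percent per cell was 0.851 and 0.523 without chaperones and Btg1, 0.348 and 0.193 for AP-1 genes, and 0.606 in GFP- at 5% mitochondrial UMIs. Fos had a UMI in 48.4% and 32.8% of cells thinned to 2000 UMIs and in 81.3% and 70.7% unthinned. The 5 ratios of at least 2-fold whose log2 went to the other side of 0 did so in GFP+ within 5000 to 15000 UMIs. They were Klf2 (0.20) and Hspa1a (-0.75) in Chodl-high cells, and Fosb (-0.051), Maff (-0.12) and Klf4 (-0.31) in Lyz2-positive cells. The cause was not tested beyond what each setting changes by construction. No paired analysis was possible because each fraction has 1 library, and no library could be left out. Erfe-high GFP- values rest on 20 cells with 6905.5 UMIs at the median, and pools of fewer cells gave no ratio.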

Other observations

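Barcodes over the limit of 10% mitochondrial UMIs, 32 in GFP+ and 343 in GFP-, belong to no comparison above. The 42 members held 0.575% of their UMIs in GFP+ and 0.720% in GFP-, against 1.07% and 0.710% in kept cells.

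The 10 members with 1 exon had the same median ratio of GFP+ over GFP- as the other members over all kept cells, 1.53 in both classes.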
